A study of Mus musculus with 26 samples.

Results

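CSR-HTGTS-Seq reads the joins that a fixed bait, placed just upstream of a switch region, makes with any other broken end in the genome. The joins described here are those that ended in Sγ1 or its flanks on chromosome 12 between 114558000 and 114587999 (mm9), ran in the deletional orientation, and carried no mark for low mapping quality. There were 36834 of them among 777800 junctions in 26 libraries. They made up 9.95% of the 370343 deletional joins of this region, since the other 333509 were marked for low mapping quality. Members were thus chosen by place, orientation and mapping mark, and not by genotype, bait or stimulation.

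The libraries came from CD43-negative splenic B cells of 6 to 8 week old WT and homozygous A150 mice. Both lines shared a strain background, which the study's methods name. Positions and reference letters here are those of mm9, and they were not compared with a sequence of this strain. In A150 mice a cassette of a PVH promoter, a VDJ exon and the Eµ enhancer replaces the Iγ3 promoter on every allele and in every cell type, and B cell development in this line is driven by IgG3, so A150 and WT cells also differ in how they developed. Cells were stimulated with anti-CD40+IL4 or with anti-CD40+TGF-β and harvested at 96 h per the labels. By the study's methods the second mixture also held IL5, BLyS and a lower dose of IL4. Differences between the stimulations are thus between whole mixtures and cannot be assigned to TGF-β. With the Sµ bait there were 3 WT and 4 A150 libraries for anti-CD40+IL4 and 3 of each genotype for anti-CD40+TGF-β. The Sγ3 bait was used for 3 A150 libraries after anti-CD40+IL4, 4 A150 libraries after anti-CD40+TGF-β and 3 WT libraries after each stimulation. The legends of the study count independent mice, while the labels do not tie a library to a mouse, and p-values measure the spread between these libraries. The 20 libraries other than those of WT cells with the Sγ3 bait held 362 to 5548 of the joins among 4621 to 96481 IgH junctions, and they alone entered the tests.

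Class switch recombination (CSR) exchanges the constant region of an antibody by joining breaks in a pair of switch regions and deleting the DNA between them. AID, the enzyme that starts the breaks, deaminates cytosines within transcribed switch DNA and acts most often in short motifs such as AGCT, whose complement reads the same. Broken ends are joined directly, with a few inserted bases, or through a short stretch of microhomology that both ends share. Sγ1 is the switch region of IgG1, lies between those of IgG3 and IgG2b, and is built of tandem repeats so alike that short reads can often be placed in several of them.

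Breaks recurred at the same bases. The joins fell on 9091 positions, of which 2754 held a single join and the fullest held 105. The 5 fullest positions at least 100 bp apart and seen in at least 10 libraries are printed first, since they show the sequence around the breaks that recurred most in counts pooled over libraries, where 25418 of the 36834 joins came from the Sγ3 bait. They held 354 joins, 0.961% of the total. Each line gives 60 bases of the minus strand, which is the coding direction of the locus, and the break lies after base 30. Capitals mark the 3 bases before the break and the 1 after it. The letters are those that the deposited alignments mark as identical to mm9.
Position 1, chr12:114578460-114578519: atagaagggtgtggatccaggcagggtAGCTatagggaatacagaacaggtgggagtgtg
Position 2, chr12:114571111-114571170: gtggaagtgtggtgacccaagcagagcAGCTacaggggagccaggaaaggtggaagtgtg
Position 3, chr12:114576839-114576898: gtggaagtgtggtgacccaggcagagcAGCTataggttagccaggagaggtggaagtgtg
Position 4, chr12:114578596-114578655: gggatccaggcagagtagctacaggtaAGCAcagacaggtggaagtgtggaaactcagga
Position 5, chr12:114578705-114578764: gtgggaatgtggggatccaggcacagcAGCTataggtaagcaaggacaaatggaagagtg

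In all 5 lines the break followed AGC, and in 4 of them the next base completed AGCT. Not all joins at these positions were direct. At position 1, 45 were direct, 48 held inserted bases and 12 shared bases with the bait. At position 2 these counts were 25, 42 and 30. At positions 3, 4 and 5, 38.5%, 40.4% and 33.3% were direct. Inserted or shared bases blur the break point of the others. Position 1 held 105 joins from 16 libraries with 67 different bait ends, so that at least 67 different junctions shared this Sγ1 base. Of these joins 92 came from the Sγ3 bait and 13 from the Sµ bait, which is 0.362% and 0.114% of each bait's joins. Position 2 held 97 joins from 19 libraries with 69 bait ends, and it took a larger part of the Sµ-bait joins (0.412%) than of the Sγ3-bait joins (0.197%). The third fullest position of all, with 84 joins, lay 49 bp from position 2, at about the spacing of the repeat. Positions 3, 4 and 5 held 52, 52 and 48 joins from 12, 11 and 12 libraries, of which 43, 48 and 42 came from the Sγ3 bait and 9, 4 and 6 from the Sµ bait. Positions 1, 4 and 5 lie in the bin of 1 kb from 114578000, upstream of the stretch that most joins with a low-mapping mark occupy, while position 2 lies inside that stretch.

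Breaks at this motif were then counted over the 13 bins of 1 kb that each held at least 1% of the joins, where the reads covered 12779 positions. The motif AGCT was searched for, which reads the same on both strands. A break after AGC and before T is possible at 1.86% of these positions. Among direct joins, whose break point is not blurred by shared or inserted bases, 7.34% ± 2.10 (SD, n = 13) of a Sµ-bait library's joins and 13.2% ± 2.05 (SD, n = 7) of an A150 Sγ3-bait library's joins had this break. The lowest library of either bait, at 3.28% and 10.2%, was above the share of positions. Breaks after A alone, in contrast, made up 1.27% ± 0.625 (SD, n = 13) and 0.723% ± 0.255 (SD, n = 7) of direct joins, below the 1.86% of positions. The highest Sµ-bait library, at 2.31%, was above that share, and the highest Sγ3-bait library, at 1.02%, was below it. Counting all joins, the break after AGC was at 9.79% ± 1.74 (SD, n = 13) of Sµ-bait joins, and at 8.57% ± 0.455 (SD, n = 7) of A150 Sγ3-bait joins.

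**Figure D1:**
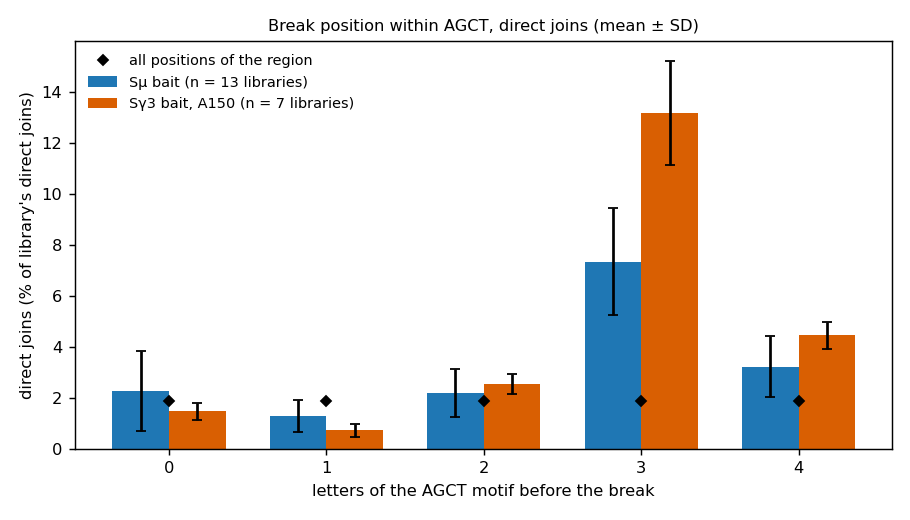
Direct joins that broke within AGCT, by the number of motif letters before the break (x axis), as a percentage of a library's direct joins (y axis). Bars are means and error bars SDs of the 13 Sµ-bait and the 7 A150 Sγ3-bait libraries, and diamonds give the share of all positions at which such a break is possible. The bars for 3 letters, at 7.34% and 13.2%, stand highest above the diamonds, which lie at 1.86%.

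Of the 4-letter words formed by 3 bases before and 1 after the break, AGCT was the most frequent among direct joins pooled over both baits, with 11.2% of them and 6.02 times its share of positions. Of these joins 252 came from the Sµ bait and 790 from the Sγ3 bait. AGCC came next with 4.73%, or 3.28 times its share. CAGG, a common word of the repeats with 5.01% of positions, held 3.73% of direct joins. A break inside or at an edge of AGCT was found for 16.3%, 19.5% and 21.2% of the Sµ-bait joins in the upstream flank, the core and the downstream flank, where 7.46%, 9.78% and 10.3% of positions allow one. These shares count all joins, pooled over libraries. Among direct Sµ-bait joins the mean over libraries was 15.2%, 14.5% and 21.6% in the same order of zones, and the lowest libraries, at 6.56% upstream and 4.69% in the core, were below the share of positions there. Among direct A150 Sγ3-bait joins the means were 20.9%, 23.0% and 26.3%. The lowest of these libraries, at 16.9%, 17.8% and 18.2%, were above the share of positions.

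Where the joins lay differed with bait, genotype and stimulation. To describe this, the core of Sγ1 was set as the stretch that held the central 95% of the joins marked for low mapping quality, chr12:114569922-114576770, a length of 6849 bp. The marked joins themselves ended at 114568835 and 114577174, so beyond those points no join carried the mark. Of the joins described here 15724 fell in the core, 14544 upstream of it (toward Sγ3 and Sµ) and 6566 downstream of it, and 43.8% lay outside the span of the marked joins. In the bins from 114570000 to 114576999 the unmarked joins made up 2.85% to 9.32% of all deletional joins, so their counts there understate the joins of the core.

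Per bin of 1 kb, joins pooled over all libraries, most of them from the Sγ3 bait, were densest just upstream of the core. The bin from 114577000 held 6768 joins, the bin from 114578000 held 5713 and the bin from 114576000 held 4565. Beyond 114579000 the counts dropped to 464 in the first kb and 43 in the next. On the downstream side the fullest flank bin, from 114568000, held 3298 joins, and the counts dropped to 271 in the bin from 114566000 and 74 in the bin before it. Inside the core the bin from 114571000, which holds position 2, had 3528 joins, and the next one downstream, from 114570000, had 585, the fewest of the 7 bins from 114570000 to 114576999. The bins from 114567000 to 114579999 held nearly all joins, and 98.7% of them lay at positions used for the motif counts above.

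**Figure D2:**
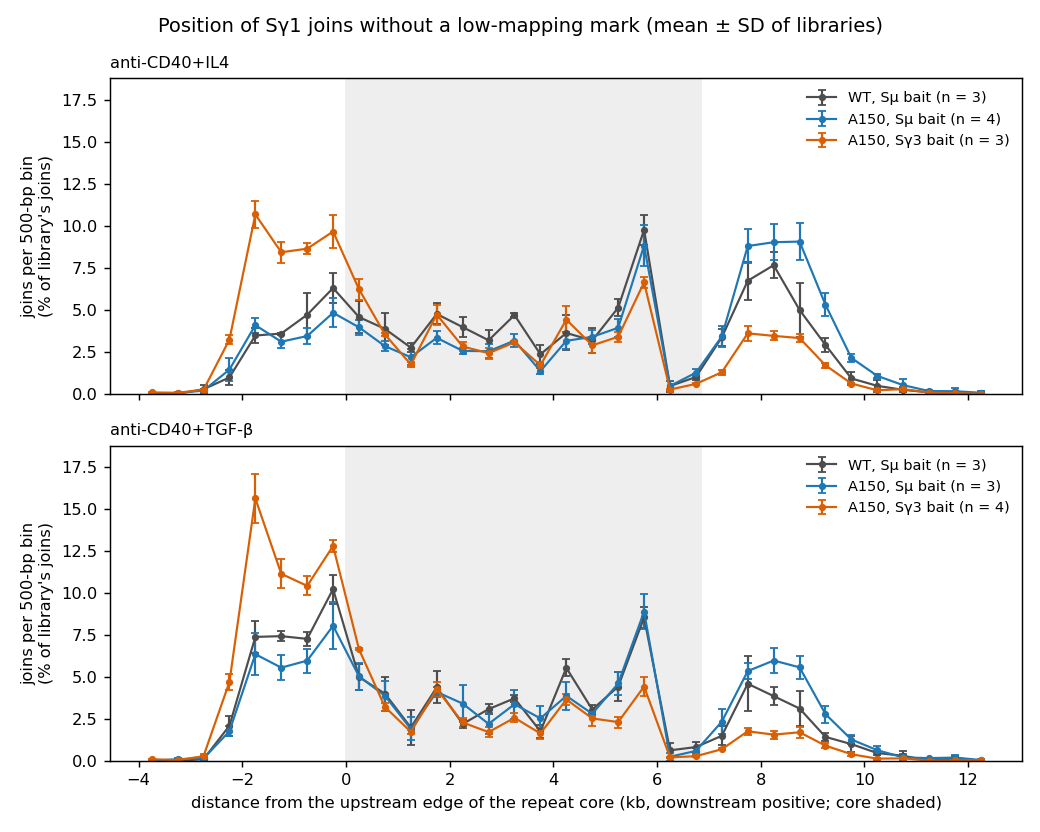
Joins per bin of 500 bp, as a percentage of a library's joins (y axis), by distance in kb from the upstream edge of the repeat core (x axis), with the core shaded. Points are means and bars SDs of libraries. The Sγ3 bait of A150 cells stands highest upstream of the core and lowest downstream of it with both stimulations.

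The bait comparison asks how joins of Sγ3, once it is placed under Eµ, differ from those of Sµ in the same kind of cells. The Sγ3 bait of A150 cells joined the upstream flank more often than the Sµ bait. With anti-CD40+IL4, 42.3%, 42.4% and 38.6% of the joins of the 3 Sγ3-bait libraries were upstream, against 16.1%, 17.7%, 18.4% and 16.8% with the Sµ bait. With anti-CD40+TGF-β the shares were 56.7%, 56.9%, 54.6% and 52.6% against 28.1%, 28.7% and 27.1%. No Sγ3-bait library overlapped a Sµ-bait library of its stimulation.

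Over both stimulations the upstream share was higher by 25.6 percentage points with the Sγ3 bait (48.2% against 22.6%, 2-sided exact permutation test within stimulations, p = 0.000816, adjusted over the 12 measures p = 0.00163). This is the smallest p the 14 libraries allow. The downstream share was lower by the same test, 11.2% against 32.7% (adjusted p = 0.00163, exact permutation). The Sγ3-bait libraries held 15.3%, 14.9% and 14.3% after anti-CD40+IL4, then 7.54%, 7.16%, 7.16% and 8.12% after anti-CD40+TGF-β, while the Sµ-bait libraries held 39.4% to 41.7% and 22.5% to 26.5%. The core share was 40.7% against 44.7% and did not pass (adjusted p = 0.0661, exact permutation), although it did without replicate 3 of the Sγ3-bait anti-CD40+IL4 libraries (p = 0.0229, exact permutation) and with at least 30 aligned Sγ1 and 50 bait bases (-5.95 points, p = 0.018, exact permutation). The difference was 1.69 points with anti-CD40+IL4, where libraries overlapped (adjusted p = 0.286), and -9.74 points with anti-CD40+TGF-β, where they did not (adjusted p = 0.0429, both exact permutation). Measured from the upstream edge of the core, the median join of a Sγ3-bait library lay 870 ± 343 bp (SD, n = 3) into the core after anti-CD40+IL4, and after anti-CD40+TGF-β it lay upstream of the edge in all 4 libraries, at -281 to -99 bp. In A150 libraries with the Sµ bait it lay 5453 ± 130 bp (SD, n = 4) and 3238 ± 656 bp (SD, n = 3) into the core.

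Among single bins, the one from 114578000, which holds positions 1, 4 and 5, took 16.2% ± 1.02 (SD, n = 3) of Sγ3-bait joins with anti-CD40+IL4 and 22.9% ± 1.35 (SD, n = 4) with anti-CD40+TGF-β. In A150 cells with the Sµ bait it took 6.33% ± 0.769 (SD, n = 4) and 9.69% ± 2.43 (SD, n = 3). With the Sµ bait and anti-CD40+IL4 the downstream bin from 114568000 was fuller than the bins from 114577000 and 114578000, with 15.2% against 10.8% and 5.58% in WT cells and 19.8% against 8.18% and 6.33% in A150 cells. With anti-CD40+TGF-β it held less than the bin from 114577000, at 8.78% against 18.5% and 11.9% in WT cells and 13.2% against 14.1% and 9.69% in A150 cells. Between the baits of A150 cells this downstream bin showed the opposite order to the one from 114578000, with 7.40% ± 0.527 (SD, n = 3) and 3.45% ± 0.396 (SD, n = 4) against 19.8% ± 1.68 (SD, n = 4) and 13.2% ± 1.46 (SD, n = 3).

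Sµ-bait joins of A150 cells lay downstream of the core more often than those of WT cells. Downstream joins made up 40.0%, 40.4%, 39.4% and 41.7% in A150 libraries and 28.1%, 23.7% and 31.9% in WT libraries with anti-CD40+IL4. With anti-CD40+TGF-β they made up 26.5%, 26.1% and 22.5% in A150 and 14.4%, 17.6% and 18.7% in WT. Each A150 library was above each WT library of its stimulation.

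Over both stimulations the downstream share was 32.7% in A150 and 22.4% in WT, a difference of 10.3 percentage points (exact permutation, p = 0.00143, adjusted p = 0.00571, the smallest the 13 libraries allow). Within anti-CD40+IL4 alone the exact permutation p was 0.0286 and its adjusted value 0.0857, and within anti-CD40+TGF-β 3 libraries against 3 cannot go below 0.1. The core share was lower in A150 by 5.96 points (adjusted p = 0.0214, exact permutation), and the difference was -10.3 points with anti-CD40+IL4 (p = 0.0286) and -1.60 points with anti-CD40+TGF-β (p = 0.4, both exact permutation). The upstream share was lower by 4.32 points (22.6% against 26.9%, adjusted p = 0.0229, exact permutation), and this difference fell to 2.52 points (p = 0.0786, exact permutation) among joins with at least 100 aligned Sγ1 bases. By stimulation it was -2.12 points with anti-CD40+IL4, where libraries overlapped (p = 0.229, and -0.773 points without replicate 1 of the WT libraries), and -6.52 points with anti-CD40+TGF-β, where they did not (p = 0.1, the smallest possible, both exact permutation).

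Joins lay further upstream with anti-CD40+TGF-β than with anti-CD40+IL4. WT Sµ-bait libraries held 22.1%, 19.6% and 16.5% upstream joins with anti-CD40+IL4 and 36.5%, 35.2% and 31.8% with anti-CD40+TGF-β. In A150 cells the mean upstream share was 17.3% and 28.0% with the Sµ bait and 41.1% and 55.2% with the Sγ3 bait. In each of these 3 settings the libraries of the stimulations did not overlap.

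Over the 3 settings the upstream share was 13.3 percentage points higher with anti-CD40+TGF-β and the downstream share 11.2 points lower (both exact permutation p = 4.08e-05, adjusted p = 9.8e-05, the smallest the 20 libraries allow). The core share differed by 2.07 points and did not pass (adjusted p = 0.229, exact permutation), which averages values of unlike sign. The anti-CD40+TGF-β minus anti-CD40+IL4 value was -4.07 points in WT cells (adjusted p = 0.133), 4.65 points in A150 cells with the Sµ bait (adjusted p = 0.0571) and -6.78 points with the Sγ3 bait (adjusted p = 0.049, all exact permutation), and in none of the 3 settings did the libraries overlap.

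**Figure D3:**
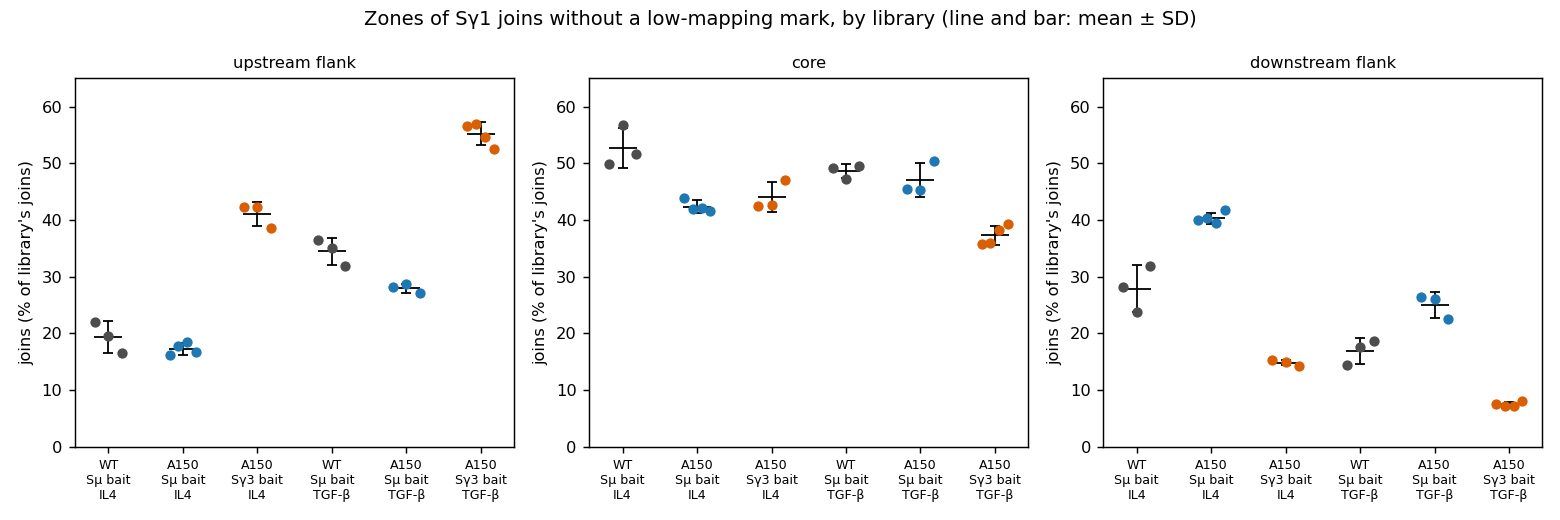
Percentage of a library's joins (y axis) in the upstream flank, the core and the downstream flank for each of the 20 libraries (points), with the mean and SD of each group. Upstream, the A150 Sγ3-bait libraries lie above all others of their stimulation, and downstream they lie below them.

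The zones depend on the mapping mark, so 2 further values are given. The median position of the marked joins, almost all of them in the core, differed between the groups by less than that of the joins described here and ran from 2739 ± 56.9 bp (SD, n = 4) in A150 Sγ3-bait anti-CD40+TGF-β libraries to 3178 ± 27.8 bp (SD, n = 4) in A150 Sµ-bait anti-CD40+IL4 libraries. The medians of the joins described here put the 6 groups in the same order, from -204 ± 79.3 bp (SD, n = 4) to 5453 ± 130 bp (SD, n = 4). The order of the marked joins is not resolved throughout. Only the lowest group, at 2664 to 2802 bp, was apart from the next, at 2897 to 3043 bp, and the library ranges of all other neighbouring groups overlapped. When joins in the core were left out, downstream joins made up 19.3% of the flank joins with the Sγ3 bait and 58.6% with the Sµ bait of A150 cells, and 45.9% with the Sµ bait of WT cells. The bait difference then had p = 0.000816 and the genotype difference p = 0.00143 by exact permutation.

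Microhomology differed between the baits. Overlap counts the bases of a read that align to the bait side as well as to Sγ1. Of the A150 Sγ3-bait joins with anti-CD40+IL4, 9.65%, 9.88% and 9.92% had an overlap over 3 bp, and 9.89%, 11.1%, 10.5% and 10.4% with anti-CD40+TGF-β. The A150 Sµ-bait libraries had 5.79%, 4.41%, 5.17% and 6.29%, and 6.62%, 5.46% and 5.95%. The highest Sµ-bait library was below the lowest Sγ3-bait library.

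The difference of 4.43 percentage points (10.1% against 5.71%) had an adjusted p of 0.00163 by exact permutation. Direct joins were rarer with the Sγ3 bait by 3.91 points (24.3% against 28.2%, adjusted p = 0.00163, exact permutation). Insertions were rarer by 2.77 points (21.6% against 24.4%, adjusted p = 0.00612, exact permutation). This last difference was 4.42 points with anti-CD40+IL4 and 1.12 points with anti-CD40+TGF-β, where libraries overlapped. The mean overlap of joins without insertion was 1.69 bp with the Sγ3 bait and 1.24 bp with the Sµ bait.

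Genotype did not separate the overlap classes. Overlaps over 3 bp made up 4.91%, 4.80% and 5.25% of WT Sµ-bait joins with anti-CD40+IL4 and 4.70%, 6.41% and 6.99% with anti-CD40+TGF-β. The A150 minus WT difference was 0.203 points (adjusted p = 0.709, exact permutation), which does not show that the genotypes were alike. The WT group of anti-CD40+TGF-β alone spanned more than the whole difference.

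Insertions and overlaps also differed between the stimulations. Insertions were rarer by 2.46 points with anti-CD40+TGF-β over the 3 settings (22.1% against 24.5%, adjusted p = 0.00448, exact permutation). The difference was 4.36 points in WT and 3.16 points in A150 cells with the Sµ bait, while Sγ3-bait libraries averaged 21.5% and 21.7%. Overlaps over 3 bp were more frequent by 0.761 points (adjusted p = 0.0354, exact permutation), and this call was lost with a threshold of 4 bp (0.420 points, p = 0.0733, exact permutation) and without replicate 1 of the A150 Sµ-bait anti-CD40+TGF-β libraries (0.660 points, p = 0.0565) or replicate 2 of the WT Sµ-bait anti-CD40+IL4 libraries (0.730 points, p = 0.052, both exact permutation).

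**Figure D4:**
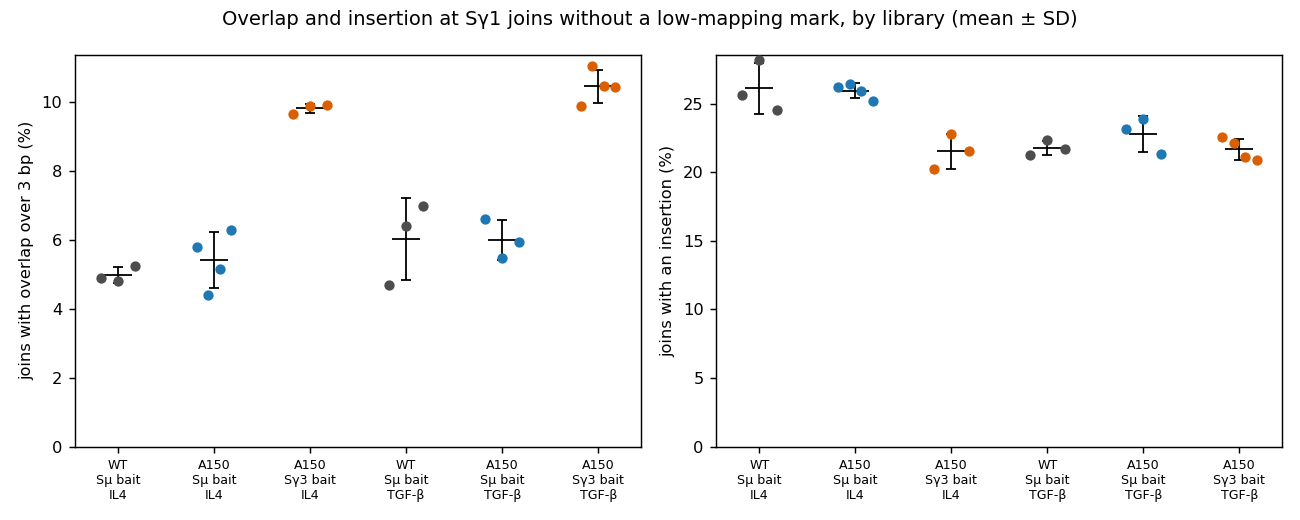
Percentage of joins with an overlap over 3 bp (left y axis) and with an insertion (right panel y axis) in each of the 20 libraries, with the mean and SD of each group. The 7 A150 Sγ3-bait libraries, at 9.65% to 11.1%, stand above all Sµ-bait libraries for overlap.

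The overlap classes were also read zone by zone, with no test. In the core, overlaps over 3 bp made up 8.70% ± 0.763 (SD, n = 3) of Sγ3-bait and 4.43% ± 0.907 (SD, n = 4) of A150 Sµ-bait joins with anti-CD40+IL4. With anti-CD40+TGF-β they made up 9.64% ± 0.693 (SD, n = 4) and 5.30% ± 0.686 (SD, n = 3). In the same order of stimulations, the means in the upstream flank were 10.8% and 11.1% against 5.74% and 6.29%, and those in the downstream flank 10.7% and 10.2% against 6.35% and 6.93%. The Sγ3-bait mean was above the A150 Sµ-bait mean of the same stimulation in all 3 zones, although downstream the anti-CD40+TGF-β libraries overlapped, with a highest Sµ-bait value of 8.52% and a lowest Sγ3-bait value of 8.05%.

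The shared sequences are shown for the most frequent overlap over 3 bp with each bait and for the most frequent of 10 bp or more with the Sγ3 bait, at the pair of break positions where each was seen most. These pairs held only 2, 3 and 2 joins in the order printed, and 1, 2 and 2 of their reads held the printed join letter for letter. Capitals mark the overlap. All lines read along the minus strand of mm9, with the bait of mm9 first, then the join, then Sγ1 of mm9.
Sµ bait, chr12:114668738-114668781: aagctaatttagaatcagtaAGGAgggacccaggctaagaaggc
Sµ join: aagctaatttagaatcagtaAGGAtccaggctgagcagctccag
Sγ1, chr12:114577658-114577701: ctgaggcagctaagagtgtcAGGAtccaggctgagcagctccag
Sγ3 bait with 4 bp, chr12:114606262-114606305: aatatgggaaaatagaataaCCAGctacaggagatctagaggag
Sγ3 join with 4 bp: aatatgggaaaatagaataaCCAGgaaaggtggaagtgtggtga
Sγ1, chr12:114571107-114571150: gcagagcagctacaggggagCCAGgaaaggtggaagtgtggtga
Sγ3 bait with 10 bp, chr12:114606255-114606304: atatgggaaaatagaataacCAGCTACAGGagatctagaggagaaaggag
Sγ3 join with 10 bp: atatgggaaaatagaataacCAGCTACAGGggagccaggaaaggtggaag
Sγ1, chr12:114571115-114571164: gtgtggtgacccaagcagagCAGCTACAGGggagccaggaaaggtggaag

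AGGA was shared at 33 Sµ-bait joins in 12 libraries, 11.1% of the 298 overlaps of 4 bp. CCAG was shared at 130 Sγ3-bait joins in all 7 A150 libraries, 11.6% of 1117. The 10-bp overlap CAGCTACAGG holds AGCT and occurs in the Sγ3 bait and in the Sγ1 line around position 2. It made up 21 of the 82 overlaps of exactly 10 bp with the Sγ3 bait, and CAGCTCCAGG, which differs from it by 1 base, made up 18. With the Sµ bait there were 6 overlaps of 10 bp, and the 3 most frequent were each seen once. Overlaps of 10 bp or more made up 0.732% ± 0.163 (SD, n = 3) and 0.825% ± 0.294 (SD, n = 4) of A150 Sγ3-bait joins for the stimulations in the same order, and 0.0767% ± 0.0702 (SD, n = 4) and 0.205% ± 0.0625 (SD, n = 3) of A150 Sµ-bait joins.

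Insertions were short with both baits. Their median was 2 bp, and 40.9% of the 2856 insertions with the Sµ bait and 46.3% of the 5513 with the Sγ3 bait were of 1 bp. Insertions of at least 5 bp made up 18.5% and 14.1% of them. The longest in either set was 30 bp.

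The abundance of the joins was read against other junctions of the same standing, since in these tables duplicate marks were found on marked joins alone. Among IgH junctions without the low-mapping mark, WT Sµ-bait libraries held 26.7%, 28.1% and 26.8% with anti-CD40+IL4 and 32.1%, 32.5% and 33.0% with anti-CD40+TGF-β. A150 Sµ-bait libraries held 16.2%, 14.2%, 13.98% and 15.1%, and 19.8%, 19.1% and 19.2%. All A150 libraries were below all WT libraries, and the difference of 12.7 points (17.1% against 29.9%) had an adjusted p of 0.00571 by exact permutation. Against all IgH junctions, marked ones included, the A150 minus WT difference was -0.95 points (adjusted p = 0.0229), and against all junctions of the genome -0.106 points (p = 0.606, both exact permutation). Against the deletional Sγ1 joins it was 0.410 points (9.22% against 8.81%, adjusted p = 0.486), and 1.55 points without duplicates (p = 0.00286, both exact permutation).

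With the Sγ3 bait the A150 libraries held 14.2%, 13.95% and 13.9%, and 14.7%, 15.1%, 14.9% and 15.4%. This was lower than with the Sµ bait of the same cells by 2.58 points over both stimulations (adjusted p = 0.0028, exact permutation). With other denominators the direction was the opposite. The Sγ3 bait minus Sµ bait difference was 0.438 points of all IgH junctions (6.27% against 5.83%, adjusted p = 0.0661), 1.14 points of all junctions of the genome (p = 0.00245) and 2.06 points of the deletional Sγ1 joins (11.3% against 9.22%, adjusted p = 0.0131, all exact permutation). The first of these was -0.0441 points with at least 30 aligned Sγ1 and 50 bait bases (exact permutation, p = 0.833). The third was 1.23 points with these bases (p = 0.0776) and 1.56 points with at least 100 aligned Sγ1 bases (p = 0.0555, both exact permutation). Within the stimulations the share of unmarked IgH junctions was lower by 0.855 points with anti-CD40+IL4 (adjusted p = 0.267, with a Sγ3 bait minus Sµ bait value of -0.425 without replicate 1 of the Sµ-bait libraries) and by 4.31 points with anti-CD40+TGF-β (adjusted p = 0.0429, both exact permutation). With anti-CD40+TGF-β the share was higher than with anti-CD40+IL4 by 3.61 points over the 3 settings (adjusted p = 9.8e-05, exact permutation).

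As a share of all IgH junctions, marked ones included, the joins made up 5.65% and 7.91% in WT and 5.14% and 6.53% in A150 cells with the Sµ bait, and 5.58% and 6.97% in A150 cells with the Sγ3 bait, each time with IL4 before TGF-β. The stimulation difference of 1.68 points (adjusted p = 9.8e-05, exact permutation) turned to -0.874 points (p = 0.00616, exact permutation) when all junctions of the genome were the denominator, since IgH made up less of the anti-CD40+TGF-β libraries. Among deletional Sγ1 joins the unmarked part was 8.45% with anti-CD40+IL4 and 11.1% with anti-CD40+TGF-β over the 3 settings (adjusted p = 0.000327, exact permutation).

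**Figure D5:**
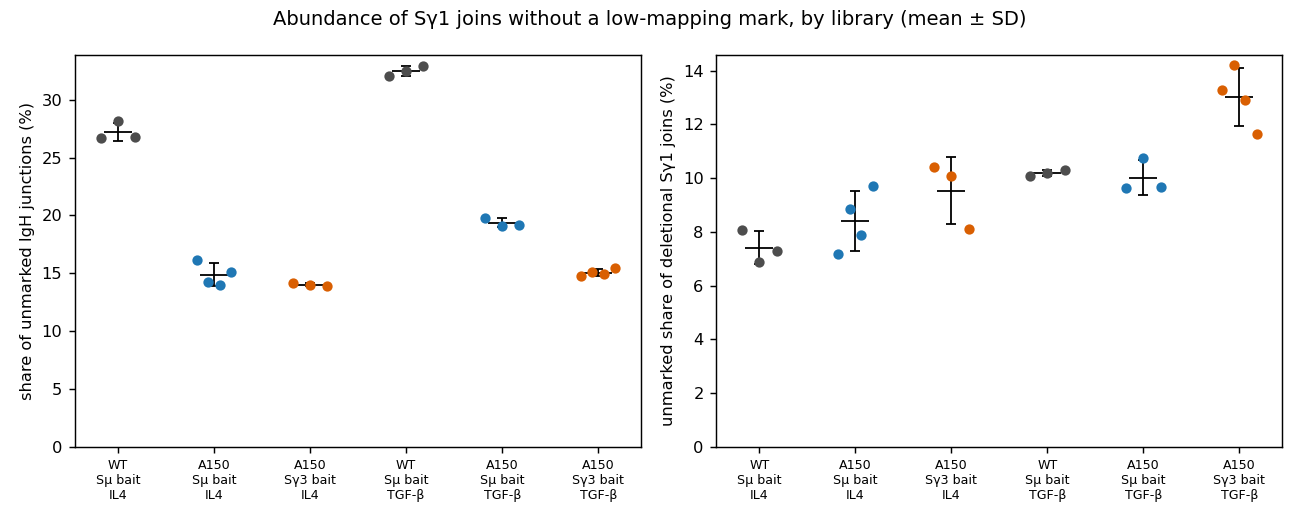
The joins as a percentage of unmarked IgH junctions (left) and of all deletional Sγ1 joins, marked or not (right), in each of the 20 libraries with the mean and SD of each group. On the left the WT Sµ-bait libraries, at 26.7% to 33.0%, stand above all A150 libraries.

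The marked joins of the same libraries are the nearest set for comparison. Almost all of them lay in the core, while unmarked joins also lay in the flanks, so these differences mix mapping mark with zone. Within the core, overlaps over 3 bp made up 4.07% and 4.43% of unmarked Sµ-bait joins with anti-CD40+IL4 (WT, then A150). With anti-CD40+TGF-β they made up 6.08% and 5.30%. No comparison with marked joins was made within a zone. With the Sµ bait, overlaps over 3 bp were more frequent at unmarked than at marked joins by 1.01 points (5.60% against 4.59%, higher in 12 of 13 libraries, exact sign-flip permutation, adjusted p = 0.00439). With the Sγ3 bait they were less frequent by 0.574 points (higher in 1 of 7 libraries, adjusted p = 0.0469, exact sign-flip permutation). Without the 108264 marked Sγ1 joins that were also marked as duplicates, the Sγ3-bait difference turned to 0.819 points in the other direction (higher in 6 of 7, p = 0.0312) and the Sµ-bait difference was 0.920 points (p = 0.0022, both exact sign-flip permutation).

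With the Sµ bait the difference in insertions did not pass (-0.917 points, adjusted p = 0.401), and without duplicates it was -2.16 points (higher in 2 of 13 libraries, p = 0.0061, both exact sign-flip permutation). With the Sγ3 bait insertions were 1.16 points more frequent at unmarked joins (7 of 7 libraries, adjusted p = 0.0469, exact sign-flip permutation) and 0.668 points less frequent once duplicates were left out. The aligned Sγ1 side was longer at unmarked joins, with medians of 141 against 107 bases with the Sµ bait and 114 against 102 with the Sγ3 bait (a description with no test, since the mark that chose the joins can depend on this length).

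Within the region, the median aligned length of the unmarked joins was 163 bases in the core, 98 upstream and 105 downstream. Mismatches to mm9 were 3.63 per 100 aligned bases in the core, 1.31 upstream and 0.661 downstream. In the core, reads thus differed more from the mm9 letters they were placed on. Only 1 of 6607 core positions covered by at least 20 joins had a mismatch in over 90% of them. How much of the mismatch comes from differences between the strain of these mice and mm9 was not tested. Whether the length or the mismatches have a part in the zone shares was not tested beyond the alternative with at least 100 aligned bases.

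In WT cells the Sγ3 bait gave 20 such joins in 6 libraries, 15 of 256 IgH junctions with anti-CD40+IL4 and 5 of 106 with anti-CD40+TGF-β. Of the 15, 13 lay upstream (86.7%, Wilson 95% interval 62.1% to 96.3%) and 1 had an overlap over 3 bp. Of the 5, 3 lay upstream (60%, interval 23.1% to 88.2%). These counts are too small for a test against A150, and the intervals cover counting error only.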

How the data were processed

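Genomic DNA junctions of 26 CSR-HTGTS-Seq libraries were taken from the tables that the authors deposited, 1 row per junction, with positions, strands, alignment strings, read sequences and filter marks (values of other kinds, with no normalization). The submitters' processing notes name Bowtie2 and mm9, and their versions and settings are not given in the sources used here. Samples were grouped by title, since the target locus tag follows the bait and not the genotype, and the cell type rests on the labels because junctions carry no marker levels. Joins, zones and tests were chosen with earlier results of these data known.

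Overlap was the bait's last read base minus the first Sγ1 read base plus 1. IgH was chromosome 12 from 114450000 to 114700000. Each library gave 12 values, which were compared by 2-sided exact permutation of labels within strata, with Benjamini-Hochberg adjustment over the 12. Whether a difference changed between stimulations is not reported, because the permutation test planned for it takes the difference itself into its null spread. Libraries with the same number deviated together, with correlations from 0.145 to 0.728 over the 12 values, for the stimulations of A150 cells with either bait. In each of the other comparisons the correlations were of mixed sign, and they ran from -0.669 to 0.487. Positions to print were the 5 fullest at least 100 bp apart in at least 10 libraries, and bins the 3 fullest of 1 kb, with the fullest bin of the downstream flank and the motifs added after the values were seen. No mm9 genome was used, so letters came from read bases that the alignments mark as matching, and 3 of 20632 positions held more than 1 letter. None of the 36834 joins carried a duplicate mark, whereas 32.5% of the marked Sγ1 joins did. Scripts were tested on simulated data and ran on Python 3.11.15 with numpy 2.4.6, pandas 2.3.3, scipy 1.17.1 and matplotlib 3.10.9.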

Additional observations from a re-analysis of the deposited data

Results flagged for a closer look

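Replicate 3 of the A150 Sµ-bait anti-CD40+IL4 libraries had overlaps of 1 to 3 bp at 42.5% of its joins, while the nearest of the other 3 libraries of the group had 40.3%. Replicate 2 of the A150 Sγ3-bait anti-CD40+TGF-β libraries had a mean overlap of 1.78 bp at joins without insertion, and the nearest of the other 3 had 1.68 bp. Both stand apart by the gap to their neighbour relative to the range of their group (0.922 and 0.867 of the range). Chance marks about 1 in 20 groups in this way, and 2 groups of 4 libraries with 12 values each were looked at.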

How the results depend on the processing

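The differences over both stimulations, or over the 3 settings, that changed direction or side of the threshold follow, in percentage points unless bases are named. The upstream share in A150 against WT was -2.52 (exact permutation p = 0.0786) with at least 100 aligned Sγ1 bases, an alternative chosen after seeing the data, and -4.24 (p = 0.0938) with same-numbered libraries paired as a block. The stimulation difference of overlaps over 3 bp was 0.761 without insertions in the denominator (exact permutation p = 0.0676), 0.420 with a threshold of 4 bp (p = 0.0733), and 0.602 to 0.984 with any 1 library left out. For genotype that range was -0.132 to 0.442, with the lowest without replicate 1 of the WT anti-CD40+TGF-β libraries. The share of all IgH junctions changed sign for bait (-0.0441 with at least 30 Sγ1 and 50 bait bases) and for stimulation (-0.874 with the whole genome as denominator, exact permutation p = 0.00616). Insertions in A150 against WT changed sign with at least 100 aligned bases (-0.154). Against marked joins with the Sγ3 bait, insertions were -1.01 and overlaps over 3 bp 0.454 with identical junctions counted once, and -0.668 and 0.819 without duplicates. Without 1 of 6 Sγ3-bait libraries, overlaps over 3 bp against marked joins were -0.407 to -0.637 and lost the call (exact sign-flip p = 0.0625 each). With the Sµ bait, insertions against marked joins came to pass at -2.34 and -2.16 in these settings. The bait difference of the core share passed with at least 30 Sγ1 and 50 bait bases (-5.95, exact permutation p = 0.018). That of the share of all IgH junctions passed with identical junctions counted once (0.459, exact permutation p = 0.00408), without duplicates (0.470, p = 0.00163), with the whole genome as denominator (1.14, p = 0.00245), with the block (0.608, exact sign-flip p = 0.0312) and without 1 of 4 libraries (0.499 to 0.585). That of the unmarked share of deletional Sγ1 joins was lost with at least 30 and 50 bases (1.23, exact permutation p = 0.0776) and with at least 100 (1.56, p = 0.0555), while the genotype difference of this share passed with identical junctions counted once (1.45, p = 0.00286) and without duplicates (1.55, p = 0.00286). The genotype difference of the share of all IgH junctions was lost with the whole genome as denominator (-0.106, exact permutation p = 0.606). The mean overlap reached the threshold by genotype with at least 100 bases (0.0598 bp, exact permutation p = 0.05) and by stimulation with at least 30 and 50 bases (0.0541 bp, p = 0.0413). The stimulation difference of direct joins passed without replicate 1 of the A150 Sµ-bait anti-CD40+TGF-β libraries (1.62, exact permutation p = 0.0496). The causes were not tested. Under the replicate block a single stimulation and bait has 3 pairs, which cannot go below p = 0.25, and over all 9 pairs the stimulation difference of the upstream share was 13.5 (exact sign-flip p = 0.00391). The block changed no other call named in the report over both stimulations except the core share in A150 against WT (exact sign-flip p = 0.0625). Within 1 stimulation, leaving out a library leaves 20 arrangements or fewer, with which no p can pass the threshold. Depth limits the WT Sγ3-bait libraries, with 31 to 102 IgH junctions each, to values without a test.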
